A study of Equus caballus with 9 samples.

Results

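The genes described here were selected on their level in 5 of 9 RNA sequencing libraries of horse bone marrow stromal cells. They were high in 1 undifferentiated library (MSC replicate 3, MSC3) and 1 chondrogenic library (CDM replicate 1, CDM1), and low in the other undifferentiated libraries (MSC1 and MSC2) and in another chondrogenic library (CDM3). A gene was chosen by its CPM, the counts per 1000000 of a library total that was adjusted by TMM (trimmed mean of M-values) for differences in composition. The lower of its MSC3 and CDM1 levels had to be at least 5 CPM and at least 3 times the highest of its MSC1, MSC2 and CDM3 levels. This gave 85 of the 13571 genes that passed a filter on low counts, or 0.626%. The remaining libraries, the 3 adipogenic ones (ADM1, ADM2 and ADM3) and CDM2, did not enter these limits. All 9 libraries entered the filter and the TMM scaling.

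The study took equine multipotent stromal cells from bone marrow, left 3 samples undifferentiated as controls (MSC), and took others along the fat lineage (ADM, 3 samples) or the cartilage lineage (CDM, 3 samples). Polyadenylated RNA was sequenced from each. The labels give no strain, age, sex or time in culture, and do not say whether the numbered samples came from separate cultures or horses. P-values therefore rest on the variation among these libraries only, and that variation may be technical. MSC3 and CDM1 carry different sample numbers.

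Cultured stromal cells of the marrow adhere to plastic and can form fat, cartilage or bone cells under the right signals. Adipogenic media drive a programme led by lipid-handling genes, and chondrogenic media one led by cartilage collagens and proteoglycans. The files identify genes by Ensembl ID only, and 0 of the 30371 IDs could be paired with a symbol through the RefSeq table used here. Lists of cell type markers and pathways could therefore not be applied, the labelled cell types could not be checked against their markers, and the function of each member is not given. In bulk samples such as these, fewer cells of a type and less RNA per cell cannot be told apart.

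Gene counts ranged from 17260899 in CDM2 to 39331930 in ADM1. CDM2 stood apart from the other libraries, with a TMM factor of 0.525 against 0.904 to 1.41 elsewhere and 36.4% of its reads assigned to no gene against 24.4% to 30.2%. The TMM factors of the rule's libraries also differed by side: 0.922 and 0.904 in MSC3 and CDM1, against 1.30, 1.41 and 1.13 in MSC1, MSC2 and CDM3. With DESeq2 size factors in place of TMM the same 85 genes met the rule. With library totals as the only scaling, 53 met it, all of them among the 85.

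The median member stood at 91.4 CPM in MSC3 and 49.9 CPM in CDM1, where the rule required high levels. It stood at 4.91, 4.59 and 6.84 CPM in MSC1, MSC2 and CDM3, where the rule required low ones. In the libraries outside the rule it stood at 22.4, 28.6 and 20.05 CPM in ADM1, ADM2 and ADM3, and at 7.51 CPM in CDM2. The adipogenic libraries thus lay between both sides of the rule, and CDM2 lay near its low side. The median over all 13571 genes was 13.3 to 15.1 CPM in every library.

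**Figure D1:**
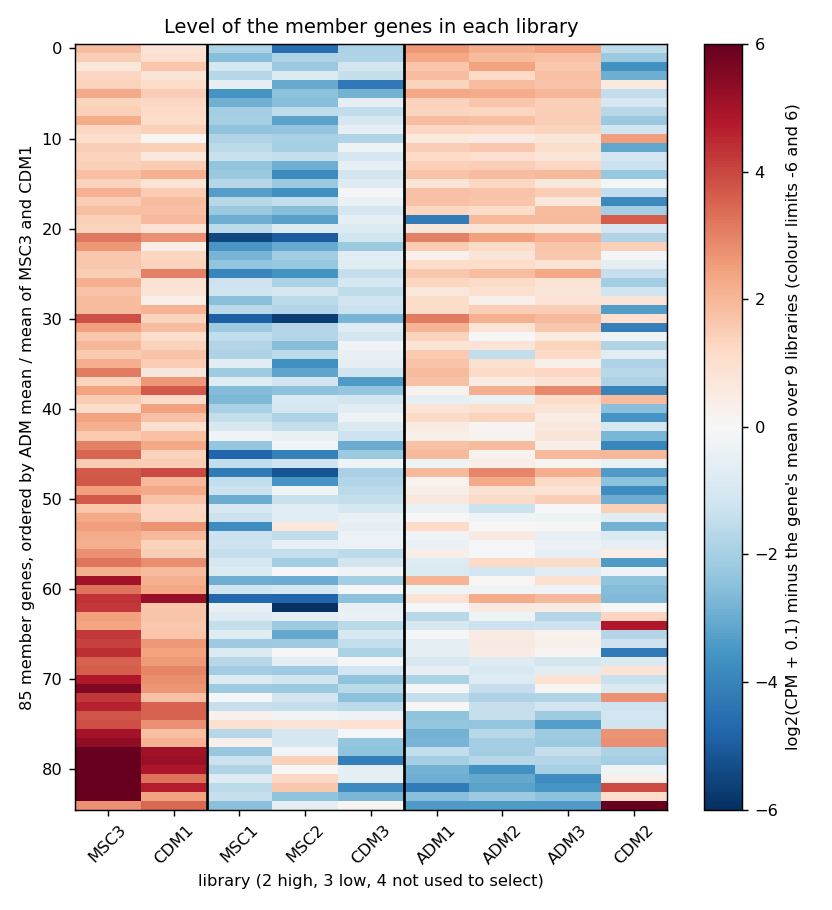
Each row is 1 of the 85 member genes and each column 1 library; colour gives log2(CPM + 0.1) minus the gene's mean over the 9 libraries, with colours limited at -6 and 6. Rows run from the highest ratio of the ADM mean to the mean of MSC3 and CDM1 (top) to the lowest; the top rows are red in MSC3, CDM1 and the 3 ADM libraries, and the bottom rows are red in MSC3 and CDM1 and mostly blue in ADM.

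Together the members held 13.2% of all gene counts in MSC3 (Wilson 95% interval 13.195% to 13.217%) and 8.40% in CDM1 (8.394% to 8.413%). Their share was 1.20% in MSC1, 1.11% in MSC2 and 2.29% in CDM3. In ADM1, ADM2 and ADM3 it was 5.95%, 6.42% and 4.37%, and in CDM2 0.284%. These intervals cover counting error only and leave out variation between libraries. The reads carry no molecular identifiers, so repeat reads of the same molecule could not be removed. The order of the libraries was the same as in the median levels except that CDM2 fell below the low libraries.

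Most of this share came from 1 gene, ENSECAG00000013693, the member with the highest mean level. It held 10.6% of gene counts in MSC3 and 6.54% in CDM1. It held 4.76%, 5.35% and 3.24% in ADM1, ADM2 and ADM3, 1.02%, 0.839% and 1.97% in MSC1, MSC2 and CDM3, and 0.0976% in CDM2. The other 84 members held 2.62% of counts in MSC3 and 1.87% in CDM1, against 1.07% to 1.19% in the ADM libraries and 0.181%, 0.272%, 0.322% and 0.187% in MSC1, MSC2, CDM3 and CDM2. Without the most abundant member, CDM2 no longer lay below the libraries on the low side of the rule.

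**Figure D2:**
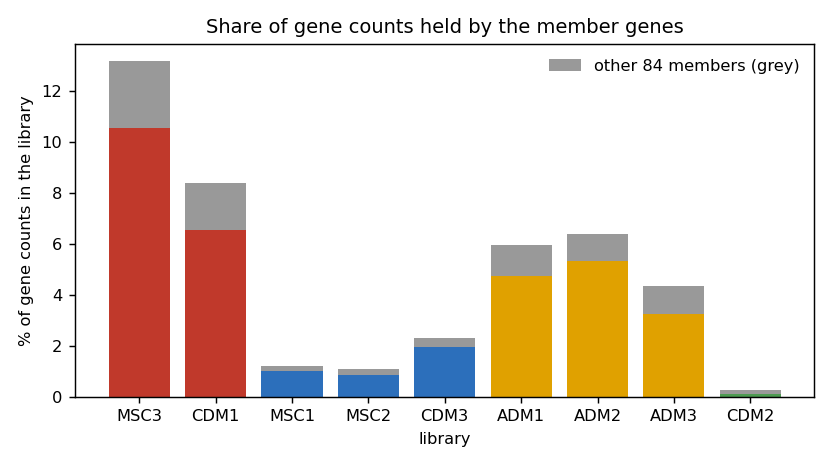
Bars give the percentage of all gene counts in each library that fell on the 85 members, with ENSECAG00000013693 as the coloured part (red: MSC3 and CDM1, blue: the low libraries of the rule, yellow: ADM, green: CDM2) and the other 84 members in grey. The full bars stand at 13.2% in MSC3, 8.40% in CDM1, 4.37% to 6.42% in the ADM libraries and 0.284% in CDM2.

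MSC3 and CDM1 did not carry the members at equal levels. MSC3 was above CDM1 in 68 of the 85 genes, with a median ratio of 1.59 and a range of 0.345 to 205. These values and the counts that follow were not obtained over all genes, so they are not read as a trait of the members. In 49 genes the pair lay within 2-fold of each other, and only 1 gene differed more than 10-fold. That gene, the 14th by the ratio of the rule, stood at 3985 CPM in MSC3 (138104 counts) and 19.5 CPM in CDM1. It was at 7.73 CPM in CDM2, at 0.443 to 1.30 CPM in MSC1, MSC2 and CDM3, and at 0.530 to 0.702 CPM in the ADM libraries. Its level in MSC3 thus far exceeded that in each of the other 8 libraries.

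The ratio of the lower high library to the highest low library, which chose the members, had a median of 4.34 and reached 133. It was at least 10 in 19 genes and under 4 in 31. The members nearest to the limit had ratios of 3.10, 3.08 and 3.04, and the genes just outside it 2.97, 2.95 and 2.94. The highest low library was CDM3 in 50 genes, MSC2 in 18 and MSC1 in 17. CDM1 was the lower of the high libraries in 68. Depth was sufficient on the high side, where the fewest counts of any member were 212 in MSC3 and 161 in CDM1. On the low side, 84 of the 85 members had 10 or more counts in at least 1 library, so most were detected there at a low level rather than missing.

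ENSECAG00000010695 had the largest ratio, 133. It stood at 67.6 CPM in MSC3 and 127.8 CPM in CDM1 (2341 and 3690 counts). MSC1 and MSC2 had 1 count each, or 0.0289 and 0.0265 CPM, and CDM3 had 16 counts, or 0.507 CPM. The ADM libraries, outside the rule, stood at 5.98, 15.4 and 12.7 CPM, with 237 to 527 counts, and CDM2 stood at 0.442 CPM with 4 counts. All 3 ADM libraries were thus above the low libraries and below the high ones, and CDM2 was within the range of the low libraries.

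The abundant ENSECAG00000013693 had a ratio of 4.13. Its levels were 114839 CPM in MSC3 and 72309 CPM in CDM1, against 7857, 5956 and 17512 CPM in MSC1, MSC2 and CDM3. The ADM libraries stood at 47194, 53718 and 29483 CPM, again between the sides of the rule, and CDM2 at 1860 CPM was the lowest of all 9 libraries.

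A contrasting order was found in ENSECAG00000016322 and ENSECAG00000003318. ENSECAG00000016322 had 0 counts in all 3 ADM libraries, which allows a level of up to 0.0757 to 0.0988 CPM in each. It stood at 6.95 CPM in MSC3, 11.4 CPM in CDM1 and 120.3 CPM in CDM2, against 0.0867, 0.610 and 1.04 CPM in MSC1, MSC2 and CDM3. CDM2 was the highest of its 9 libraries and the ADM libraries the lowest. ENSECAG00000003318 stood at 164.9 CPM in MSC3, 60.3 CPM in CDM1 and 34.5 CPM in CDM2. It was at 0.0252, 0.146 and 0.0988 CPM in the ADM libraries, with 1 to 5 counts, and at 0.664, 7.001 and 0.0633 CPM in MSC1, MSC2 and CDM3. Here MSC3, CDM1 and CDM2 were high, and no ADM library was above 5 counts.

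**Figure D3:**
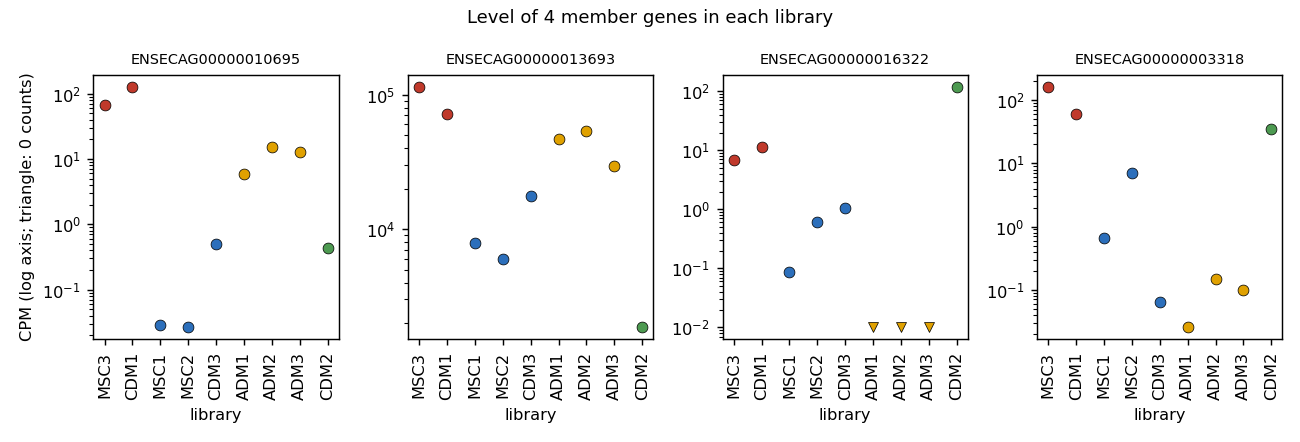
Points give the level of 4 member genes in each library in CPM on a log axis (red: MSC3 and CDM1, blue: MSC1, MSC2 and CDM3, yellow: ADM, green: CDM2), and triangles mark 0 counts, drawn at the foot of the axis. In the first and second gene the ADM points lie between red and blue and CDM2 is low; in the other two CDM2 is above every ADM point.

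The adipogenic libraries were then described for all members. In 60 of the 85 genes every ADM library was above all of MSC1, MSC2 and CDM3. All 3 ADM libraries reached at least 3 times the highest of those libraries in 30 genes, or 35.3%. The same was true of 1.66% of all 13571 genes and of 0.498% of the 8636 other genes with at least 5 CPM in both MSC3 and CDM1. The limit in both counts is the rule's own low side, which was low in every member by choice. The first count was not made over all genes. The shares of the second cannot be set against each other as a test. The median fold between the highest and the lowest ADM library was 1.65 over the 83 members with counts in all of them, and 1.41 over all genes.

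In the 30 genes high in all ADM libraries, the median levels were 64.4, 58.4 and 59.7 CPM in ADM1, ADM2 and ADM3. The medians of the same genes were 88.8 CPM in MSC3 and 61.8 CPM in CDM1. In MSC1, MSC2 and CDM3 they were 5.33, 4.84 and 8.63 CPM. The genes were picked for ADM levels at least 3 times the highest of these low libraries, so that gap was set by choice. In 16 members every ADM library was at or above the lower of MSC3 and CDM1. An ADM library was the highest of all 9 in 11 members, counting 4 for ADM1, 4 for ADM2 and 3 for ADM3, and MSC3 was the highest in 55. The rule kept MSC1, MSC2 and CDM3 from being the highest in any member. These counts were not made over all genes, so they are not read as a trait of the members.

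Another 24 members reached the 3-fold mark in some ADM libraries, and 31 in none. In those 31 genes the median levels were 2.98, 4.62 and 3.82 CPM in the ADM libraries, against 112.7 CPM in MSC3 and 38.8 CPM in CDM1. In 15 of them every ADM library was at or below the highest of MSC1, MSC2 and CDM3. Over all 85 genes, the ADM mean was a median 0.434 times the mean of MSC3 and CDM1. It was above that mean in 8 genes and under 0.1 times it in 19. The adipogenic libraries therefore carried some members at or above the lower of MSC3 and CDM1, and others at or below the highest of MSC1, MSC2 and CDM3. These groups were defined from the ADM levels, were not counted over all genes and were not tested.

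CDM2 lay on the low side of the rule in most members. It was at or below the highest of MSC1, MSC2 and CDM3 in 55 genes. It was at or above the lower of MSC3 and CDM1 in 12, and in between in 18. These positions depend on the rule's own limits and were not counted over all genes. CDM2 reached at least 3 times the low libraries in 18 genes, or 21.2%. With library totals as the only scaling that count was 8. The mark was reached by 11.3% of all genes and by 8.66% of the 8636 other genes with at least 5 CPM in both MSC3 and CDM1. The low libraries were low in every member by choice, so these shares cannot be set against each other as a test. CDM2 had fewer than 10 counts in 13 members. Its level was a median 0.0739 times the mean of MSC3 and CDM1, where the same value over all genes was 0.856. For the ADM mean the values were 0.434 over the members and 0.986 over all genes. The rule required MSC3 and CDM1 to be high in every member, so members and all genes cannot be set against each other here as a test. CDM1 and CDM2 share the CDM label, but CDM1 was high and CDM3 low in every member by choice. The position of CDM2 is therefore given without a conclusion on that label.

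Of the 30 genes high in all ADM libraries, 4 (13.3%) were also at 3 times the low libraries in CDM2. Among the other 55 members, 14 were (25.5%). CDM2 was at that mark in 11.3% of all genes. The overlap of CDM2 and ADM was not counted over all genes, so it is not read as a trait of the members. In the 18 members high in CDM2, the median level was 36.8 CPM in CDM2 and 3.63, 5.46 and 10.6 CPM in ADM1, ADM2 and ADM3. The 18 genes stood at medians of 134.2 CPM in MSC3 and 23.3 CPM in CDM1. A group of 17 members was at least 3 times higher in MSC3 and CDM1 than in each of the 7 other libraries, with medians of 142.1 CPM in MSC3, 65.0 CPM in CDM1, 2.57 to 3.39 CPM in ADM and 1.66 CPM in CDM2. These subgroups were defined from the values they describe and were not tested.

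**Figure D4:**
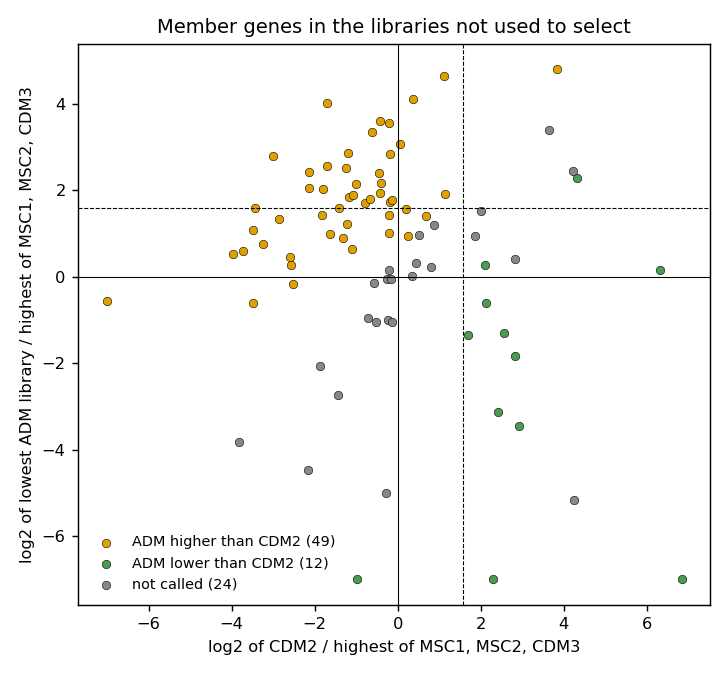
Each point is 1 of the 85 members; the axes give the log2 ratio of CDM2 (x) and of the lowest ADM library (y) to the highest of MSC1, MSC2 and CDM3, with values under -7 drawn at -7, solid lines at equal levels and dashed lines at 3-fold. Colour gives the test of ADM against CDM2: 49 members higher in ADM (yellow), 12 lower (green) and 24 not called (grey); 30 points lie on or above the horizontal dashed line and 18 on or to the right of the vertical one.

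Only ADM and CDM2 could be compared on libraries that the limits of the rule did not use. They had entered the filter and the TMM scaling that came before the rule. All 85 members were among the 14069 genes tested in these 4 libraries by edgeR's quasi-likelihood test. After adjustment over all genes (Benjamini-Hochberg, 0.05), 49 members were higher in ADM (57.6%) and 12 were lower (14.1%). Of all genes tested, 29.1% were higher and 26.0% lower. The median log2 difference was 1.79 over the members and 0.28 over all genes, and 62 members lay above the latter. Every ADM library was above CDM2 in 56 members (65.9%) and below it in 19 (22.4%), against 48.3% and 39.6% of all genes. CDM2 is a single library that stands apart from the others and was assumed to vary like the ADM libraries, so this compares ADM with that library and not with chondrogenic cells. Scaling that put the median of all genes at 0 gave 45 members higher and 15 lower, against 23.7% and 30.5% of all genes. Library totals gave 57 higher and 9 lower, against 47.4% and 14.1% of all genes, with a median of 2.71 over the members and 1.20 over all genes.

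**Figure D5:**
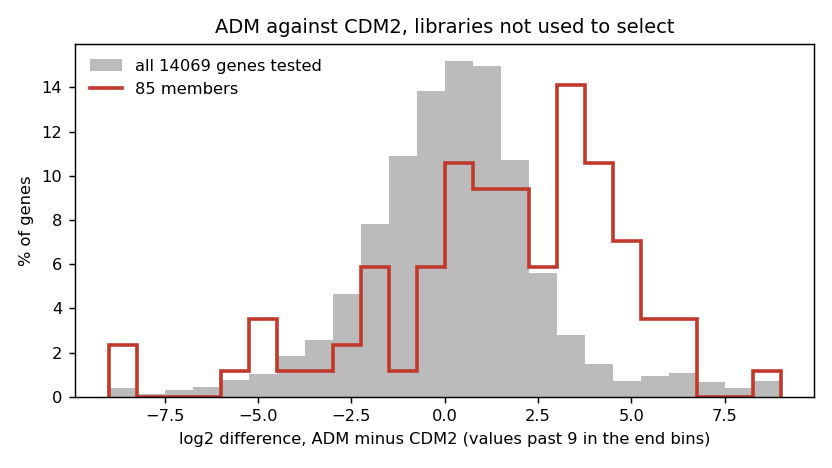
Bars give the percentage of all 14069 genes, and the red line the percentage of the 85 members, by log2 difference of ADM minus CDM2, with values past 9 placed in the end bins. The line lies to the right of the bars, with medians of 1.79 and 0.28, and has a smaller group of members far to the left.

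ENSECAG00000010695 was higher in ADM, at 11.4 ± 4.86 CPM (SD, n = 3) against 0.442 CPM in CDM2, with a log2 difference of 4.73 (SE 0.87, edgeR adjusted p = 0.00517). ENSECAG00000013693, at 43465 ± 12541 CPM (SD, n = 3) in ADM, was higher by 4.60 (SE 0.66, edgeR adjusted p = 0.0021). ENSECAG00000003318 was lower in ADM by a log2 difference of -8.50 (SE 0.51, edgeR adjusted p = 0.000238). For ENSECAG00000016322, at 0 counts in ADM, the level was at least 1218-fold lower than in CDM2, taking 3 counts in the ADM library where they amount to the highest CPM (edgeR adjusted p = 0.000246). For all 4 genes the ADM libraries were either all above CDM2 or all below it, as in 48.3% and 39.6% of all genes. ENSECAG00000003318 and ENSECAG00000016322 were named for their low log2 difference in this same test. The member with 0 counts in CDM2, also called higher, was at least 5.80-fold higher in ADM against the level of 3 counts. The members called higher that had counts in CDM2 had log2 differences of 1.10 to 6.21 with a median of 3.41. They include ENSECAG00000010695 and ENSECAG00000013693. The 11 members called lower that had counts in ADM had differences of -8.50 to -1.52.

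The labelled comparisons include libraries that chose the members, on both sides of the rule, so their results for the members are a description. In the fit of all 9 libraries, edgeR called 0 of the 85 members between ADM and MSC, where it called 0.0295% of all genes. It called 0 members between CDM and MSC and 0 between ADM and CDM, where it also called 0% of all genes. At an unadjusted p under 0.05 there were 15 members between ADM and MSC (17.6%, against 11.3% of all genes), 1 between CDM and MSC (1.18%, against 11.1%) and 11 between ADM and CDM (12.9%, against 19.0%). DESeq2 called 6 members lower and 0 higher in ADM than MSC, where it called 4.42% of all genes in either direction. It called 7 lower and 0 higher in ADM than CDM, where it called 7.10%, and 0 between CDM and MSC, where it called 0.678%. The median log2 difference of the members was -0.11 for ADM minus MSC, -0.38 for CDM minus MSC and 0.04 for ADM minus CDM. Each of MSC and CDM held 1 high library and at least 1 low one by the rule. The comparisons share libraries and are not independent of each other.

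Across the 85 members, log2 levels correlated at 0.950 to 0.977 between ADM libraries and at 0.853 between MSC3 and CDM1. CDM1 correlated with the ADM libraries at 0.730 to 0.746, and MSC3 with them at 0.554 to 0.567. CDM3, on the low side of the rule, correlated with them at 0.818 to 0.826, and MSC1 at 0.712 to 0.728. CDM2 correlated at 0.458 to 0.482 with ADM, 0.563 with MSC3 and 0.561 with CDM1. Over all 13571 genes the values were 0.916 to 0.934 for CDM1 with ADM, 0.880 to 0.892 for MSC3 with ADM, 0.895 to 0.914 for CDM3 with ADM and 0.918 for MSC3 with CDM1. These are correlations across genes, which share each gene's abundance and are not independent replicates, and the rule itself set the levels in 5 of the libraries. The ADM libraries correlated more closely with CDM3 than with CDM1 across the members, and the reverse held over all genes. The rule set CDM1 high and CDM3 low in every member, so these orders cannot be set against each other as a test.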

How the data were processed

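The authors deposited unnormalized gene counts for each of 9 libraries. The submitters' processing notes name the build equCab3 and the tools HTSeq 1.99.2, STAR 2.7.5c, FastQC 0.11.9 and DESeq2 3.16. For the annotation release and the strand setting, the entry is "not given in the sources used here", so overlapping and antisense genes, and near-identical copies, may not be kept apart. The 5 closing summary rows of each file (24.4% to 36.4% of reads) were left out. Samples were grouped by title.

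The analysis used edgeR 4.0.16 under R 4.3.3, with filterByExpr by the 3 groups, TMM scaling, and the quasi-likelihood test, 2-sided, with Benjamini-Hochberg adjustment over all genes at 0.05. The labelled comparisons used 1 fit of 9 libraries (6 residual degrees of freedom). ADM against CDM2 used 4 libraries, filtered and scaled on their own (14069 genes, 2 residual degrees of freedom). Standard errors came from the change and its F statistic. DESeq2 1.42.0 was an alternative. Correlations used log2 CPM with a prior count of 2. The procedure was tested on simulated data. Within-group pairs of libraries differed by far more than sampling noise (chi-square per degree of freedom 69.2 or more), and each counted as 1.

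The members and lists were chosen with earlier results of these data known. With no names for the IDs, 4 members are named: the first by ratio, the first by mean level, and the 2 with the lowest log2 difference among those lower in ADM than CDM2. The gene lists and promoter motifs planned could not be used. Alternatives were other scalings, filters, thresholds, tests, a replicate block and leaving out each library.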

Additional observations from a re-analysis of the deposited data

How the results depend on the processing

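The number of members, 85, was 178 with a ratio of 2, 40 with a ratio of 5 and 53 with library totals as the only scaling. It ranged from 86 to 374 when each library was left out in turn. Leaving out a library of the rule removes a condition, and gave 132 genes without MSC replicate 2, 149 without MSC replicate 3, 374 without CDM replicate 1 and 145 without CDM replicate 3. Each of those sets held all 85 members. The 30 members at 3 times the low libraries in every ADM library became 17 at 5 times, and the 18 in CDM2 became 8 with library totals. Between ADM and CDM2, 59 to 66 members were called under the alternatives, against 61. DESeq2 in place of edgeR called 6 members between ADM and MSC and 7 between ADM and CDM. The other alternatives for the labelled comparisons called 0. With the replicate number as a replicate block, 0 members were called in each labelled comparison. Deviations of same-numbered libraries from their group means correlated at -0.31 to 0.01, and 0 of 9 pairs were over 0.1. The numbers were therefore not taken as pairs. Among differently numbered libraries, the deviations of MSC1 and CDM3 correlated at 0.37 and those of MSC3 and CDM1 at 0.25. Deviations within a group sum to 0, so these values depend on each other and do not settle whether the numbers mark pairs. Scaling ADM against CDM2 by library totals or by the median of all genes, and counting members high in ADM with CDM2 left out (30), were added after seeing the data.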

Other observations

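One gene met the levels of the rule but had been removed by the filter, which asks for a minimum count in at least 3 libraries. It stood at 13.8 CPM in MSC3 and 5.40 CPM in CDM1. MSC1, MSC2 and ADM3 had 0.116, 0.0265 and 0.0658 CPM, and the other 4 libraries had 0 counts.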
